A study of Homo sapiens with 24 samples.

Results

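The minichromosome maintenance (MCM) genes examined here were MCM2, MCM3, MCM4, MCM5, MCM6, MCM7, MCM8 and MCM10. In all, 58219 genes are represented on the arrays of the series. In this and later gene counts, an array identifier without a RefSeq name counts as a gene. The MCM genes are 8 of them. These 8 were taken by name as a gene family, a choice made with earlier results of these data known. Their probes were found through the RefSeq transcript given for each probe in the scanner output. Each array version carried 10 probes for the family, a pair each for MCM5 and MCM7 and a single probe for each other gene. All 8 genes exceeded the threshold set from the negative control spots on every array analysed and were tested at both time points.

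The cells were LNCaP, an established human prostate cancer line, into which 1 of 3 synthetic siRNAs was brought by electroporation. These were a scramble negative control duplex, si-A1 directed against the long non-coding RNA TAPIR-1, and si-A2 directed against TAPIR-2, a long non-coding RNA of the same locus. On these arrays each target was met by 1 siRNA sequence in 1 cell line, so an effect of the target and an effect of that siRNA sequence cannot be told apart. RNA was taken 24 h or 48 h after transfection from 4 biological replicates per siRNA, giving 24 arrays. The 48 h si-A2 replicate 2 array was dim and was left out, which leaves 12 arrays at 24 h and 11 arrays at 48 h. The 24 h samples were hybridised to one version of the array and the 48 h samples to the next version, so time point and array version cannot be told apart.

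MCM2 to MCM7 form a hetero-hexameric ring that is loaded onto DNA at replication origins in G1 phase by the origin recognition complex with CDC6 and CDT1. In S phase the ring is joined by CDC45 and the GINS complex to give the CMG helicase, which unwinds DNA ahead of the replication fork. MCM10, which is not a helicase, binds the CMG complex and helps to switch it on, and MCM8 acts with MCM9 in homologous recombination rather than in origin licensing. Transcription of many MCM genes is tied to proliferation through E2F sites in their promoters, and MCM proteins are widely used as markers of proliferating cells. RNA was extracted from whole cultures, so fewer cycling cells and less MCM RNA per cell cannot be told apart.

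The genes lie on separate chromosomes. On GRCh38.p14, MCM2 is at chr3:127598411-127622436, MCM3 at chr6:52264015-52284742, MCM5 at chr22:35400140-35455031, MCM6 at chr2:135839626-135876443, MCM7 at chr7:100092728-100101397, MCM8 at chr20:5950652-5998977 and MCM10 at chr10:13161558-13211110. RefSeq promoter windows, from 250 bases before to 50 bases after the annotated start, were matched for 6 of the 8 genes (MCM2, MCM3, MCM6, MCM7, MCM8 and MCM10), and the window at the start of the gene was used for MCM7, which has others. They were searched on both strands for the E2F-type letters TTTCCCGC, TTTCGCGC, TTTGCCGC and TTTGGCGC. At least 1 match was found in 5 of the 6 genes, against 3.99% of the 27305 genes that have a window. Genes that load, switch on, protect and remove the ring, described further on, held a match in 14 of the 30 that have a window (46.7%). MCM10 had no match to these letters but held TTTGGCGG, and this last form was looked for after its promoter had been seen. When each of the 4 forms was also allowed to end in G, 6.19% of all windows matched. Counted per window in the same way, the 4 forms alone matched 3.315%.

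The matched stretches are shown as a description of the promoters, and their part in the MCM levels was not tested. The letters TTTGAA were searched as well and were found in no window of a member, against 15.2% of all windows. Each line gives 30 bases of the strand of the gene, 5′ to 3′, with the E2F-type letters in capitals. MCM2 and MCM6 carry overlapping matches on opposite strands, so that their capitals run over 12 bases.
MCM2, chr3:127598404-127598433, + strand: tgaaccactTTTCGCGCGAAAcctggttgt
MCM3, chr6:52284728-52284757, − strand: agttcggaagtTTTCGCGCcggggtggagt
MCM6, chr2:135876575-135876604, − strand: ggctttgcaTTTGGCGCGAAAtccctttcc
MCM6, chr2:135876513-135876542, − strand: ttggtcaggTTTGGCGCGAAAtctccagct
MCM7, chr7:100101388-100101417, − strand: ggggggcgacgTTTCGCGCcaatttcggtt
MCM8, chr20:5950667-5950696, + strand: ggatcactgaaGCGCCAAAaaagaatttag
MCM10, chr10:13161552-13161581, + strand: ccggttggaatTTTGGCGGgttcagctgtg

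MCM3 and MCM7 each held a further match upstream, at bases -174 to -167 and -187 to -180 from the start. The MCM6 promoter had the most matches, with 4 that fall in 2 paired blocks of the same letters, and its 250 bases before the start (chr2:135876444-135876693, − strand) read as follows with the same capitals.
MCM6 upstream: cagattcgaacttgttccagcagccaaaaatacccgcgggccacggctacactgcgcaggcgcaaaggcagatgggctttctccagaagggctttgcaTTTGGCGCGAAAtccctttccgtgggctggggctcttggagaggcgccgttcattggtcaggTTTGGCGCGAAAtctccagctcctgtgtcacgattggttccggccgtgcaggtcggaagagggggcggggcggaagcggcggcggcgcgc
A match of letters is a description of the sequence, and no binding was measured here.

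The series as a whole gave the following background. Median processed intensity was between 24.4 and 57.2 on the 24 h arrays and between 20.4 and 32.2 on the 48 h arrays, with 58.5% to 71.7% and 60.3% to 66.5% of probes well above background. The prostate epithelial markers KLK2, KLK3, FOLH1, HOXB13, KRT8, KRT18 and TMPRSS2 were well above background on each of the arrays kept. Of 8 markers of other cell types, 4 at 24 h and 3 at 48 h were well above background on each of them, and their mean level was between 4.56 and 5.01 in log2 intensity on the 24 h arrays and between 4.46 and 5.05 on the 48 h arrays, overlapping between all siRNA groups. The part of these markers in the MCM results was not tested. A probe for TAPIR-2 read 5.08, 4.98, 5.28 and 4.81 in the scramble arrays at 24 h and 4.70, 3.12, 4.61 and 3.82 after si-A2. At 48 h the same probe read between 4.02 and 5.41 after scramble and between 3.83 and 5.62 after si-A2. All 4 si-A2 arrays lay below all scramble arrays at 24 h, and the groups overlapped at 48 h. After si-A1 at 24 h the probe read 4.95, 4.75, 4.68 and 4.19. All but the first of these also lay below every scramble array, and they overlapped the si-A2 arrays. On si-A2 replicates 2 and 4 at 24 h the probe was not well above background. A further TAPIR-2 probe of the 48 h array version was not well above background on any of the arrays kept. No probe was matched to TAPIR-1, and groups are named by their labels throughout.

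At 24 h the levels of all 6 genes of the MCM2-7 ring were lower with either siRNA than with scramble. In what follows a level is a log2 quantile-normalized intensity of the brightest probe of a gene, and levels of different genes are not compared with each other. Calls required an adjusted p under 0.01 in limma, with Benjamini-Hochberg adjustment across the 15186 genes tested at 24 h, and a change of 0.5 or more on the log2 scale in either direction. After si-A1, 7 of the 8 members were called lower, while 1.38% of all genes tested were called lower. After si-A2 the count was also 7 of 8 and the share of all genes was again 1.38%. MCM8 was the member not called in either comparison.

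MCM4, a subunit of the ring, had levels of 8.97, 9.04, 9.50 and 9.03 in scramble replicates 1 to 4. It read 7.29, 6.98, 7.21 and 7.01 after si-A1 and 6.99, 6.76, 6.74 and 6.87 after si-A2. Every siRNA-treated array lay below every scramble array. The log2 fold change was -2.01 ± 0.24 (SE) for si-A1 (adjusted p 0.000523), a 4.04-fold lower intensity, and -2.29 ± 0.24 for si-A2 (adjusted p 0.000181), which is 4.90-fold lower.

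MCM5 encodes a ring subunit that sits beside MCM2 at the gate through which DNA enters. Its levels were 9.86, 10.03, 9.40 and 9.76 after scramble, 8.05, 7.97, 7.94 and 7.98 after si-A1, and 7.76, 7.64, 7.64 and 7.71 after si-A2. On this probe the siRNA-treated arrays spread less than the scramble arrays, with an SD of 0.04 after si-A1 and 0.06 after si-A2 against 0.27. The other MCM5 probe had an SD of 0.05 after si-A1 but 0.28 after si-A2, against 0.22 after scramble. The log2 fold changes were -1.78 ± 0.23 (adjusted p 0.000889) for si-A1 and -2.08 ± 0.23 (adjusted p 0.000311) for si-A2.

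MCM2, the other subunit of that gate, read 9.67, 9.82, 9.39 and 9.59 after scramble, between 7.79 and 8.19 after si-A1, and 7.84, 7.66, 7.65 and 7.41 after si-A2. Its level was 3.08-fold lower after si-A1 (log2 fold change -1.62 ± 0.23, adjusted p 0.00152) and 3.93-fold lower after si-A2 (log2 fold change -1.98 ± 0.23, adjusted p 0.000376). MCM6 ranged from 10.62 to 11.12 after scramble, from 9.07 to 9.38 after si-A1 and from 8.92 to 9.11 after si-A2. The changes on the log2 scale were -1.55 ± 0.24 (adjusted p 0.00284) and -1.76 ± 0.24 (adjusted p 0.000934). The groups did not overlap for either gene when compared with scramble.

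MCM3 read 10.52, 10.49, 10.30 and 10.69 after scramble, 9.15, 9.04, 9.18 and 8.85 after si-A1, and 8.17, 8.64, 8.61 and 8.73 after si-A2. The MCM3 estimate was -1.44 ± 0.24 for si-A1 (adjusted p 0.00524) and -1.96 ± 0.24 for si-A2 (adjusted p 0.000559). MCM7, whose intron also hosts a microRNA cluster, ranged from 10.90 to 11.66 after scramble, from 9.54 to 10.12 after si-A1 and from 9.65 to 10.11 after si-A2. With log2 fold changes of -1.44 ± 0.26 (adjusted p 0.00842) and -1.47 ± 0.26 (adjusted p 0.00761), MCM7 was the called member closest to the threshold in both comparisons. The si-A1 call of MCM7 was lost under each of the 12 omissions of a single array, with adjusted p between 0.0136 and 0.0454, and so was its si-A2 call, with adjusted p between 0.0104 and 0.0356.

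**Figure D1:**
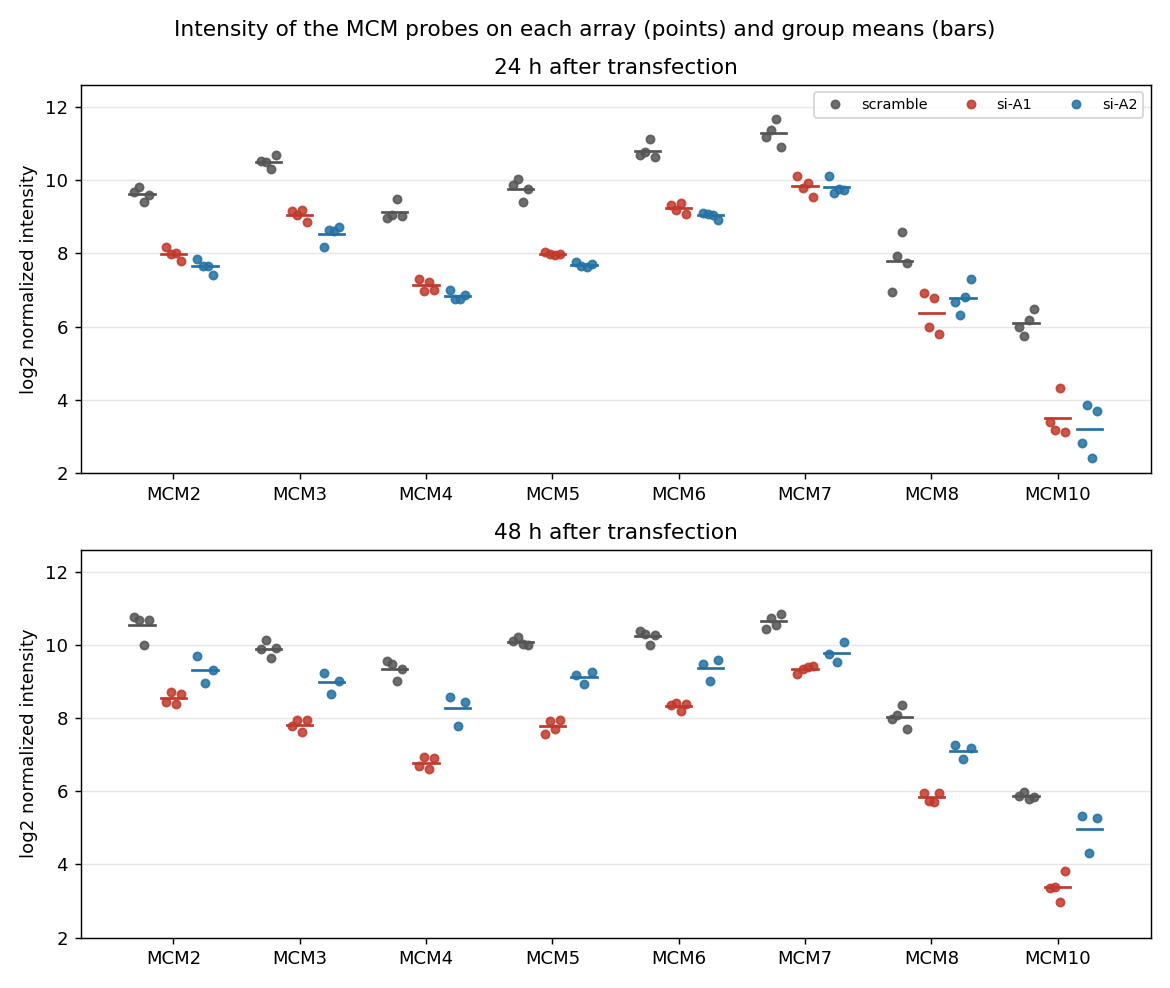
Log2 normalized intensity (vertical axis) of the brightest probe of each MCM gene (horizontal axis) on every array at 24 h (upper panel) and 48 h (lower panel); points are arrays, coloured by siRNA, and short bars are group means. At 24 h both siRNA groups sit together below scramble for MCM2 to MCM7 and MCM10, whereas at 48 h the 3 si-A2 arrays lie between the scramble and the si-A1 arrays for all 8 genes.

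MCM10 encodes the CMG-binding replication factor. Its level was 5.98, 5.74, 6.16 and 6.49 after scramble, 3.38, 3.16, 4.32 and 3.11 after si-A1, and 2.81, 3.86, 2.40 and 3.69 after si-A2. Its signal was well above background on each of the 4 scramble arrays, on 1 of 4 si-A1 arrays and on 0 of 4 si-A2 arrays. The fitted log2 fold change for si-A1 was -2.60 ± 0.38 (adjusted p 0.00216), a value that rests on 3 arrays where the signal was not well above background. With normexp correction of the median signals it was -0.83 (adjusted p 0.000138), and with no background correction also -0.83 (adjusted p 0.000125), so the call held and the size did not. For si-A2, where the group held only a bound, the level was at least 4.21-fold lower than after scramble (adjusted p 0.000833), the bound taking on each array the dimmest signal that was well above background where the probe lay under it. The bound holds for the processed signal only, since the si-A2 value on the log2 scale was -0.86 with normexp (adjusted p 0.000124) and -0.85 with no background correction (adjusted p 0.000113).

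MCM8, which acts in recombination, varied more between scramble arrays than any ring gene (SD 0.67, n = 4), with levels of 6.95, 7.94, 8.58 and 7.75. It read 6.90, 5.98, 6.78 and 5.80 after si-A1, just below the lowest scramble array, and 6.68, 6.31, 6.79 and 7.30 after si-A2, which overlaps scramble. The log2 fold change was -1.44 ± 0.37 for si-A1 (95% confidence interval -2.24 to -0.63, adjusted p 0.0609) and -1.03 ± 0.37 for si-A2 (-1.84 to -0.23, adjusted p 0.216). With normexp correction of the median signals the si-A1 value became -0.96 (adjusted p 0.00788), and with no background correction it was also -0.96 (adjusted p 0.00797), which passes the threshold in both cases.

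Over the 8 members the median log2 fold change at 24 h was -1.59 for si-A1 and -1.97 for si-A2. The medians over all genes tested were 0.02 in each comparison. The groups did not overlap, in the lower direction, for 8 of 8 members after si-A1 and for 7 of 8 after si-A2, against 7.31% and 6.24% of all genes tested. Both siRNA groups were compared with the same 4 scramble arrays. Replicates 1 and 2 of each group were on one slide and replicates 3 and 4 on another, and within each slide all 8 members were lower after either siRNA. Apart from MCM10, which was mostly not well above background after the siRNAs, the within-slide differences in log2 intensity ranged from -2.15 (MCM4) to -1.0 (MCM8) for si-A1 and from -2.45 (MCM4) to -0.94 (MCM8) for si-A2.

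The called count at 24 h was read again without single arrays. Leaving out 1 array at a time gave 2 to 6 called members for si-A1, and 6 for si-A2 in every case. The lowest si-A1 count, 2, came without si-A1 replicate 2, and the count was 3 without si-A1 replicate 4. It was 4 without si-A1 replicate 1, si-A1 replicate 3, scramble replicate 2 or scramble replicate 4. All estimates for both siRNAs stayed negative. MCM4 and MCM5 were called in all 12 omissions for si-A1, MCM2 in 11, MCM10 in 9, MCM6 in 7 and MCM3 in 3.

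The second probes of MCM5 and MCM7 were also lower after both siRNAs at 24 h. The other MCM5 probe read between 9.62 and 10.12 after scramble, between 7.72 and 7.85 after si-A1 and between 7.22 and 7.88 after si-A2. The other MCM7 probe was at or above 10.69 on all 4 scramble arrays and read 9.76, 9.43, 9.68 and 9.49 after si-A1, and 9.27, 9.42, 9.44 and 9.31 after si-A2. In a fit of every probe above the background threshold, the second probes changed by -2.14 and -1.21 for si-A1 (adjusted p 5.5e-05 and 0.0006) and by -2.43 and -1.44 for si-A2 (adjusted p 1.96e-05 and 0.000177), MCM5 being given first.

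The siRNAs were not shown to differ from each other at 24 h. None of the 8 members was called in si-A2 against si-A1 by limma, where 0.112% of all genes were called in either direction. An unadjusted p below 0.05 was reached by 0 of 8 members and by 1975 of 15186 genes. In the fit without the filter on variable genes, which gave smaller errors, 3 members and 3906 of 36639 genes reached it. The members were MCM3 (0.00769), MCM2 (0.0181) and MCM5 (0.0476), each lower after si-A2. Their adjusted p was 0.199, 0.304 and 0.462. The estimates ran from -0.52 for MCM3 (95% confidence interval -1.05 to 0.01, adjusted p 0.395) to 0.41 for MCM8 (-0.40 to 1.21). For the 6 ring genes the intervals of the first fit leave room for a difference of up to 1.05 lower or 0.54 higher on the log2 scale. MCM3 and MCM5 had non-overlapping groups, with si-A2 lower, beside 4.93% of all genes with this order.

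At 48 h all 8 members examined here were lower after si-A1. MCM9, the partner of MCM8 described further on, is not one of these 8 and was not called in that comparison. All 8 members were called lower, MCM8 included, while 6.3% of the 17479 genes tested were called lower. The median log2 fold change of the members was -2.13, beside 0.11 over all genes tested. No si-A1 array reached the level of any scramble array for any member, an order shown by 10.3% of all genes. The count stayed at 8 under each of the 11 omissions of a single array.

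MCM5 at 48 h read 10.11, 10.22, 10.02 and 10.00 after scramble and 7.56, 7.92, 7.69 and 7.94 after si-A1. This was a 4.96-fold decrease (log2 fold change -2.31 ± 0.16, adjusted p 6.07e-05), the lowest adjusted p among the members. MCM4 fell from 9.55, 9.49, 9.02 and 9.34 to 6.69, 6.93, 6.60 and 6.92, a log2 fold change of -2.57 ± 0.19 (adjusted p 7.16e-05). MCM3 fell from 9.89, 10.13, 9.65 and 9.90 to 7.80, 7.94, 7.61 and 7.95, with a log2 fold change of -2.07 ± 0.16 (adjusted p 7.77e-05).

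MCM2 read 10.76, 10.68, 10.01 and 10.69 after scramble and 8.44, 8.72, 8.37 and 8.66 after si-A1, and MCM6 ranged from 10.00 to 10.38 and from 8.20 to 8.41. Their log2 fold changes were -1.99 ± 0.20 and -1.90 ± 0.16 (adjusted p 0.000218 and 0.000103). MCM7 went from 10.44, 10.74, 10.55 and 10.85 to 9.19, 9.34, 9.40 and 9.43 after si-A1 (log2 fold change -1.30 ± 0.17, adjusted p 0.000908). The second MCM7 probe, fitted among all probes, changed by -1.86 (adjusted p 0.000127), so the size of the MCM7 decrease at 48 h differed between its probes.

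MCM8 was 7.98, 8.08, 8.36 and 7.71 after scramble and 5.96, 5.74, 5.70 and 5.95 after si-A1 at 48 h. Here its scramble arrays were closer together than at 24 h, and the log2 fold change was -2.19 ± 0.18 (adjusted p 8.89e-05). MCM10 read 5.87, 5.99, 5.78 and 5.84 after scramble and 3.35, 3.38, 2.99 and 3.83 after si-A1, where it was well above background on 2 of 4 arrays. Its fitted log2 fold change was -2.48 ± 0.26 (adjusted p 0.000237), and it was -0.77 with normexp correction of the median signals (adjusted p 6.42e-06) and -0.97 with no background correction (adjusted p 5.96e-06).

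After si-A2 the members were also lower than scramble at 48 h, by smaller amounts, and none was called. MCM5 read 9.19, 8.93 and 9.27 in the 3 si-A2 arrays, below all scramble arrays and above all si-A1 arrays (log2 fold change against scramble -0.95 ± 0.17, adjusted p 0.0209). MCM2 read 9.70, 8.95 and 9.31 (-1.16 ± 0.22, adjusted p 0.0246), and MCM4 8.58, 7.79 and 8.44 (-1.04 ± 0.21, adjusted p 0.0309). MCM3, MCM6, MCM7 and MCM8 had log2 fold changes between -0.91 and -0.85 with adjusted p between 0.0304 and 0.0376. Group means after scramble and si-A2 were 10.47 and 9.34 for the second MCM7 probe, and 9.97 and 9.04 for the second MCM5 probe.

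For MCM10 the si-A2 arrays read 5.32, 4.31 and 5.28, each well above background, with a log2 fold change of -0.87 ± 0.28 (adjusted p 0.147), which was -0.35 with normexp (adjusted p 0.00728, under the size needed for a call). Replicate 3 was the lowest of the 3 si-A2 arrays for each of the 8 members. The replicate 3 arrays of scramble and si-A1 at 48 h were also lowest for MCM2, MCM3, MCM4, MCM6 and MCM10. For MCM8 this held in si-A1 only, and for MCM5 and MCM7 in neither group. The 95% confidence intervals of the 8 si-A2 estimates all lay below 0 before adjustment for the genes tested. An unadjusted limma p below 0.05, in either direction, was found for 3088 of 17479 genes. The groups did not overlap for 8 of 8 members, against 7.99% of all genes. Calls in this comparison were few throughout, at 0.189% of genes called lower. Over all genes 41 were called in either direction, and between 0 and 1 when a single array was left out.

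The count of calls for si-A2 at 48 h changed with the treatment of background. With normexp correction of the median signals, and likewise with no background correction, 7 members were called lower (all but MCM10), and 1 was called (MCM5) when only probes well above background were tested. The unadjusted p-values lay between 0.000284 and 0.0120 in the fit reported here. Within each slide all 8 members were lower than scramble, by -1.02 to -0.60 on the first and by -1.22 to -0.82 on the second, where the first slide held a single si-A2 array.

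The left-out si-A2 array had levels below those of all scramble arrays for every member, such as 4.09 for MCM3, 4.65 for MCM6 and 1.12 for MCM10 when it was normalized with the others. With it kept in, the log2 fold changes after si-A2 lay between -2.13 and -1.38, still with no member called, and the si-A1 call was lost for 8 of 8 members, although the si-A1 estimates stayed between -2.61 and -1.33.

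**Figure D2:**
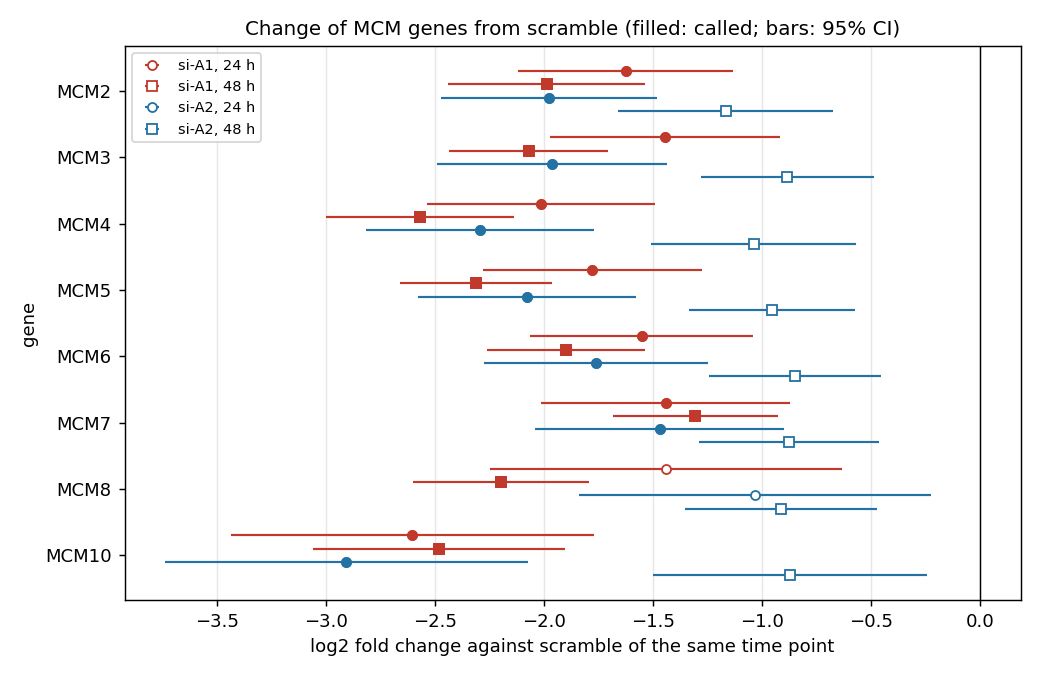
Log2 fold change of each MCM gene (vertical axis) against the scramble arrays of the same time point (horizontal axis), with 95% confidence intervals before adjustment; circles are 24 h, squares 48 h, and filled symbols are called. Apart from MCM10, the si-A1 estimates lie between -2.57 and -1.30 at both times, while the si-A2 estimates lie between -2.29 and -1.03 at 24 h and between -1.16 and -0.85, all unfilled, at 48 h. The MCM10 symbols for 24 h and for 48 h si-A1 are fitted values from arrays on which its probe was in part, and for 24 h si-A2 wholly, not well above background.

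The 3 si-A2 arrays were above all si-A1 arrays at 48 h for every member. In si-A2 against si-A1, 4 of the 8 members were called higher (MCM3, MCM4, MCM5 and MCM8), while 1.2% of all genes were called higher, and the groups did not overlap for 8 of 8 members, against 8.97%. The median difference over the members was 1.23 in log2 intensity, beside -0.07 over all genes. MCM4 was 2.89-fold higher after si-A2 (1.53 ± 0.21, adjusted p 0.0054), MCM5 2.57-fold (1.36 ± 0.17, adjusted p 0.00389), MCM8 2.43-fold (1.28 ± 0.20, adjusted p 0.00772) and MCM3 2.28-fold (1.19 ± 0.18, adjusted p 0.0073).

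MCM6, MCM10, MCM2 and MCM7 were not called, with differences of 1.05 (adjusted p 0.0106), 1.61 (0.0121), 0.82 (0.0566) and 0.43 (0.212). The second MCM7 probe lay further apart, with means of 8.61 after si-A1 (8.45 to 8.96) and 9.34 after si-A2 (9.20 to 9.56). The MCM10 difference was 0.42 with normexp (adjusted p 0.00215). Replicates with the same number deviated together at 48 h, and with the replicate number as a block in place of the slide the 4 calls were lost, with adjusted p of 0.0154 for MCM3, 0.0120 for MCM4, 0.0120 for MCM5 and 0.0303 for MCM8. The differences in that fit were 1.21, 1.53, 1.40 and 1.26. The count of calls also moved between 0 and 3 when single arrays were left out. It was 0 without any 1 of the 4 si-A1 arrays or without si-A2 replicate 1 or 4, 1 without scramble replicate 1, 2 or 4, and 3 without scramble replicate 3 or si-A2 replicate 3. The count was 0 without the slide term, 7 with no background correction, and 0 with the dim array kept in.

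The change of each effect with time was tested as an interaction over 30260 genes whose probes are on both array versions. For si-A1, none of the 8 members was called by limma, where 0.178% of all genes were called. An unadjusted p below 0.05 was found for 3 members (MCM3, MCM4 and MCM5) and for 3844 of the 30260 genes. The si-A1 effect at 48 h minus that at 24 h was -0.56 ± 0.22 for MCM4 (95% confidence interval -1.02 to -0.09, adjusted p 0.286), -0.55 ± 0.20 for MCM3 (adjusted p 0.236) and -0.47 ± 0.17 for MCM5 (adjusted p 0.227). The value was -0.78 ± 0.40 for MCM8 (-1.63 to 0.06). For MCM10 it was 0.57 ± 0.50, and 0.08 with normexp. The brightest MCM7 probe gave 0.29 ± 0.24, with -0.12 as the lowest MCM7 value over 33 settings. The second MCM7 probe went the other way, with a larger decrease at 48 h. Its group means after scramble and si-A1 were 10.80 and 9.59 at 24 h, and 10.47 and 8.61 at 48 h.

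For si-A2 the estimate was positive for 8 of 8 members, which is a smaller decrease at 48 h, and MCM5 was called. With the dim array kept in, MCM3, MCM6 and MCM8 had estimates below 0 (-0.02, -0.12 and -0.93). The MCM5 effect differed by 1.18 ± 0.17 (adjusted p 0.00827), and 0.043% of all genes were called in this direction. The second MCM5 probe gave 1.58 (adjusted p 0.00876) in the fit of all probes. The MCM5 call was kept in 5 of 23 omissions of a single array and lost in the rest, with adjusted p up to 0.0514 without 48 h si-A2 replicate 1. With the replicate block it was 1.21 (adjusted p 0.0120).

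MCM4 and MCM3 had si-A2 differences of 1.27 ± 0.23 and 1.14 ± 0.21 with the same adjusted p of 0.0414, and MCM6 had 0.99 ± 0.20 (adjusted p 0.0792). MCM2 and MCM7 had 0.88 and 0.73 (adjusted p 0.187 and 0.504). MCM10, with 0 of 4 si-A2 arrays at 24 h well above background, is given no size here and was not called (adjusted p 0.134). MCM8 had 0.13 ± 0.42 (95% confidence interval -0.76 to 1.01). Since the time points share neither arrays nor array version, these values compare effects measured within each version.

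**Figure D3:**
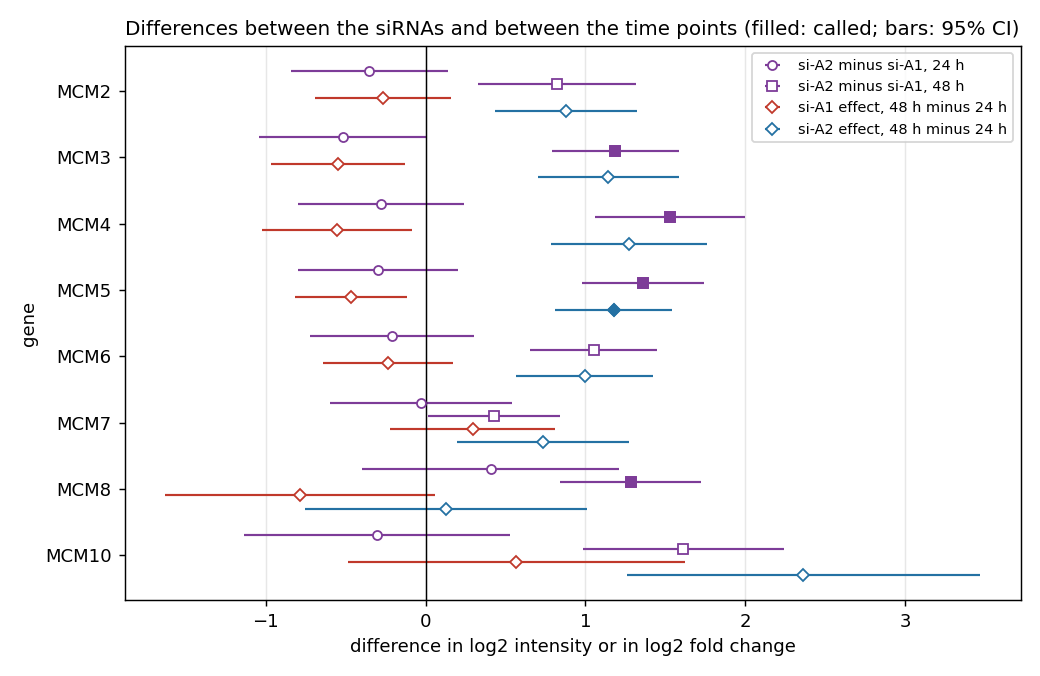
Differences for each MCM gene (vertical axis) between si-A2 and si-A1 (purple, difference in log2 intensity) and between time points (red for si-A1, blue for si-A2, difference in log2 fold change), with 95% confidence intervals before adjustment and filled symbols for calls. The si-A2 minus si-A1 difference is near 0 or below at 24 h for 7 members and above 0 for all 8 at 48 h, where MCM3, MCM4, MCM5 and MCM8 are called. MCM10 values that involve 24 h arrays rest in part on signals not well above background.

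The genes that load, switch on, protect and remove the MCM ring were described in 5 lists of 36 genes, of which 35 could be tested (GINS1 was not among them). They were taken from a fit without the filter on variable genes, so that unchanging genes were kept. At 24 h, 15 of 35 were called lower for si-A1 and 14 for si-A2, against 0.958% and 0.827% of all genes in that fit, and none was called higher. At 48 h, 26 of 35 were called lower for si-A1 and 3 for si-A2, against 3.66% and 0.379%. In si-A2 against si-A1 at 48 h, 11 were called higher, against 0.918%.

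Among the 9 licensing genes, calls at 24 h fell on ORC1 and ORC6 among the subunits of the origin recognition complex. ORC1, a subunit whose level varies over the cell cycle, changed by -2.46 ± 0.20 with si-A1 and -2.27 ± 0.20 with si-A2 at 24 h (adjusted p 0.000116 and 0.000169). ORC6 changed by -2.70 ± 0.19 and -2.54 ± 0.19 (adjusted p 5.38e-05 and 6.42e-05). ORC2, ORC3, ORC4 and ORC5 had estimates between -0.22 and 0.30 at 24 h, and none was called. CDC6, which loads the ring with ORC, was called lower after both siRNAs at 24 h (-0.80 and -0.83). CDT1, which brings the ring to the origin, was called as well (-1.47 and -1.62). Its inhibitor geminin, GMNN, was called after si-A2 (-0.74, adjusted p 0.00811) but had -0.24 (adjusted p 0.454) after si-A1, and the siRNAs did not differ past the threshold for it (-0.51, adjusted p 0.0796).

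Of the 4 tested partners of the ring in the CMG helicase, 3 were called lower after each siRNA at 24 h. CDC45 changed by -1.78 ± 0.13 with si-A1 and -2.16 ± 0.13 with si-A2 at 24 h, and GINS2 by -2.55 ± 0.15 and -2.63 ± 0.15. GINS3 changed by -2.50 ± 0.33 and -2.65 ± 0.33, while GINS4 had -1.52 and -1.40 with adjusted p 0.0159 and 0.0286. At 48 h all 4 were called after si-A1, from -3.10 for GINS3 to -2.06 for CDC45, and 1 of 4, CDC45 (-1.06, adjusted p 0.00776), after si-A2.

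Of the 12 genes of origin firing, 5 were called lower for si-A1 and 4 for si-A2 at 24 h. CCNA2, a cyclin of S phase, changed by -1.36 and -1.53 at 24 h (adjusted p 0.000675 and 0.000301). TICRR, which brings CDC45 to the loaded ring, changed by -1.85 and -2.55 (adjusted p 0.00168 and 0.000196). CCNE2 was called lower after both siRNAs (-1.56 and -1.82), whereas CCNE1, which encodes the other E-type cyclin, had 0.11 and -0.15 at 24 h and 0.30 and 0.31 at 48 h with no call. RECQL4 had -0.76 and -0.78 at 24 h and 0.15 after si-A1 at 48 h, also uncalled. DBF4, the activator of the CDC7 kinase that phosphorylates the ring, was not called at 24 h (-0.88 and -0.79) but was called at 48 h with both siRNAs (-1.75 for si-A1; -0.98 for si-A2, adjusted p 0.00764).

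Of the 4 genes that hold the fork together, 2 were called lower after each siRNA at 24 h. CLSPN, which encodes the checkpoint mediator claspin, fell by 3.72 on the log2 scale after si-A1 at 24 h, with 2 of 4 arrays well above background, and was at least 11.4-fold lower after si-A2 (adjusted p 6.42e-05), where 0 of 4 arrays were well above background. WDHD1 changed by -1.79 and -1.75 at 24 h. At 48 h all 4 genes (CLSPN, TIMELESS, TIPIN and WDHD1) were called lower after si-A1 and none after si-A2. CLSPN and CDC45 were the listed genes with a called si-A2 interaction, 4.00 ± 0.52 (adjusted p 0.00209, where CLSPN was not well above background after si-A2 at 24 h) and 1.13 ± 0.17 (adjusted p 0.00955), and CCNA2 and GMNN those with a called si-A1 interaction, -1.46 and -1.32.

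Of the 6 MCM-associated genes, 1 was called at 24 h, with si-A1. LRR1, part of the ubiquitin ligase that unloads the CMG helicase, was called lower after si-A1 at 24 h (-1.17, adjusted p 0.00298) and had -0.59 (adjusted p 0.128) after si-A2. MCM9, the partner of MCM8, had -0.27 and -0.02 at 24 h and 0.55 after si-A1 at 48 h (adjusted p 0.0224), so it was not called in any comparison with scramble. HROB, which loads MCM8 and MCM9 onto DNA, had estimates between -0.03 and 0.33 after si-A1. At 48 h after si-A1, LRR1, MCMBP and TRAIP were called lower (-1.57, -1.33 and -0.89).

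**Figure D4:**
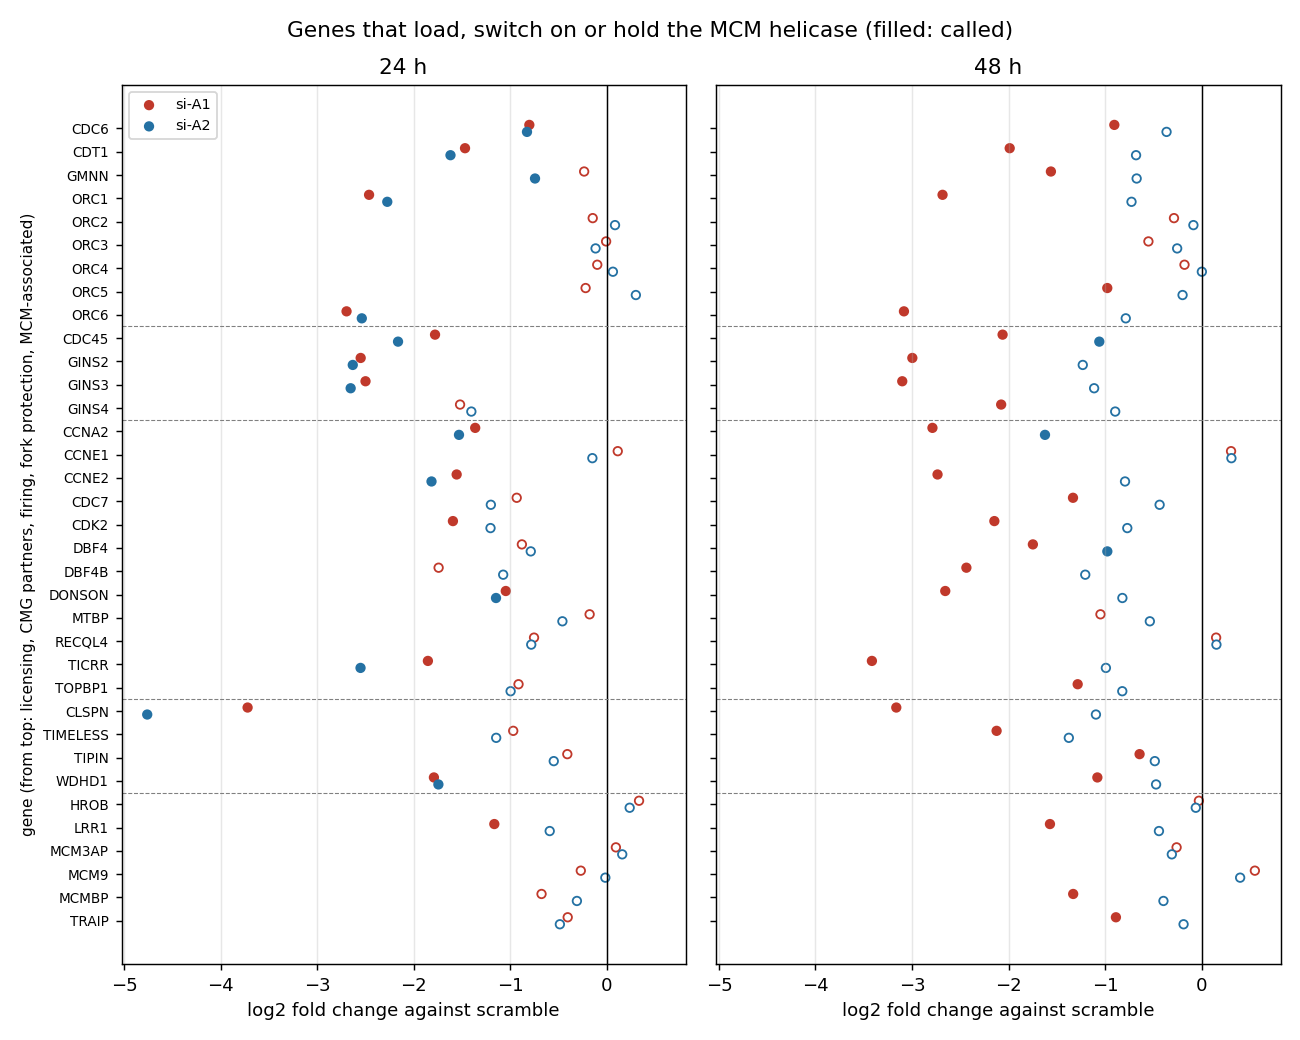
Log2 fold change against scramble (horizontal axis) of 35 genes that load, switch on, protect or remove the MCM helicase (vertical axis, dashed lines between lists) at 24 h (left) and 48 h (right), red for si-A1, blue for si-A2 and filled where called. ORC2, ORC4, CCNE1, HROB and MCM3AP lie between -0.31 and 0.33 at both times, and filled si-A2 points at 48 h are seen for CDC45, CCNA2 and DBF4.

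Finally, the genes whose level followed the ring most closely were sought over the 12 arrays of 24 h, by Pearson correlation with the mean of the standardised levels of MCM2 to MCM7. The 6 closest named genes outside the family were H3C10 (0.997), H3C2 (0.997), FEN1 (0.995), H3C7 (0.995), H3C4 (0.995) and RMI2 (0.995). The 4 H3C genes encode replication-dependent histone H3 and are near-identical copies, so that their probes may read each other, FEN1 is the flap endonuclease of Okazaki fragment processing, and RMI2 is a subunit of the BLM complex. Among the members themselves the correlation was between 0.966 and 0.993 for the ring genes, which enter that mean, and was 0.935 for MCM10 and 0.753 for MCM8. The arrays share 3 siRNA groups, so these coefficients are a description of shared group differences.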

How the data were processed

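Gene expression was measured in LNCaP cells on 24 one-colour Agilent arrays. The authors deposited the scanner output of Agilent Feature Extraction 11.5.1.1, in which each spot has a processed signal, a background-corrected intensity. They also deposited a table of log2 values, used here only as an alternative. Per the submitters' processing notes, R 3.4.3 and limma 3.34.8 were used on hg38. The number of arrays limits the precision, and p-values measure the spread between replicates described as biological.

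Here, log2 processed signals were quantile-normalized within a time point, and control spots and outlier spots were then set aside. Probes above the mean plus 3 SD of the negative controls on at least 3 arrays, and whose interquartile range reached 0.5, were kept. The brightest probe stood for a gene. Models with group and slide were fitted with limma 3.58.1 (statmod 1.5.0, the data.table package at version 1.17.8, jsonlite 2.0.0) in R 4.3.3, with Benjamini-Hochberg adjustment over all genes tested. Calls required an adjusted p under 0.01 and a log2 change of 0.5 or more in size. The interaction was fitted on all 23 arrays normalized together, without the interquartile filter. The scripts were tested on simulated data.

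Probes were named through their RefSeq accession (57.4% of those on the 24 h version, 53.4% on the 48 h version), while others kept the identifier of the array. The genes named are all members, listed pathway genes that were called or nearest 0, and the 6 genes most like the ring in pattern. The members and lists were chosen with earlier results of these data known. The background alternatives had been planned on mean signals, and median signals took their place.

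Replicate numbers were checked for pairing. At 24 h, 3 of 12 pairs of same-numbered arrays had deviations correlated above 0.1 (range -0.15 to 0.19), so the numbers were not taken as pairs. At 48 h all 10 pairs did (0.19 to 0.35), a pairing that comes from the data. Alternatives were the scaling, background, authors' log2 values, slide, replicate block, filters, probe rule, groups in the fit, fold threshold, the dim array, and each array left out.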

Additional observations from a re-analysis of the deposited data

Results flagged for a closer look

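The MCM4 level in 24 h scramble replicate 3 (9.496 in log2 intensity) stood apart from the other 3 scramble arrays, which lay between 8.97 and 9.04. Without that array the MCM4 log2 fold change was -1.89 for si-A1 (adjusted p 0.00188) and -2.17 for si-A2 (adjusted p 0.000719). The MCM2 level in 48 h scramble replicate 3 (10.01) stood below the other 3, between 10.68 and 10.76, and without it the values were -2.14 for si-A1 (adjusted p 0.000432) and -1.33 for si-A2 (adjusted p 0.0326). Of 40 groups of 4 arrays examined by Dixon's criterion, 2 stood out, and chance gives about 5%. Both arrays were at the edge of their group for other members too. At 24 h scramble replicate 3 was lowest for MCM2, MCM3 and MCM5 and highest for MCM6, MCM7 and MCM8. It also had the lowest median processed intensity of the 24 h arrays, 24.4. At 48 h scramble replicate 3 was lowest for MCM3, MCM4, MCM6 and MCM10 and highest for MCM8.

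The effect of si-A2 on MCM5 differed between the time points by 1.178 in log2 fold change, by the interaction term of limma (adjusted p 0.00827). The call was kept in 5 of 23 omissions of a single array, and time point and array version cannot be told apart.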

How the results depend on the processing

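The 4 comparisons with scramble kept a negative estimate for all members in all 24 settings each. With 1 array left out, the count of called members was 2 to 6 for 24 h si-A1, 6 to 6 for 24 h si-A2, 0 to 0 for 24 h si-A2 against si-A1, 8 to 8 for 48 h si-A1, 0 to 0 for 48 h si-A2, 0 to 3 for 48 h si-A2 against si-A1, and 0 to 0 and 0 to 2 for the si-A1 and si-A2 interactions. With only the groups compared in the fit, the count was 2 for 24 h si-A1 and 0 for 48 h si-A2 against si-A1. For 48 h si-A2 it was 7 with normexp, 7 without background correction and 1 with the filter on probes well above background. For 48 h si-A2 against si-A1 it was 7 without background correction and 0 without the slide term. With the replicate block it was 0 for 48 h si-A2 against si-A1 and 0 for the si-A2 interaction, and at 24 h, where numbers do not pair, 5 for si-A1 and 6 for si-A2. The si-A2 interaction had 0 with 75th percentile scaling (MCM5 1.13, adjusted p 0.0181) and 0 without the slide term. With the dim array kept in it was 0 for 48 h si-A1, 0 for 48 h si-A2 against si-A1 and 0 for the si-A2 interaction, and MCM3 in si-A2 against si-A1 reversed to -0.0145 (adjusted p 0.995). The causes were not tested.

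Over all genes, the 216 calls of 24 h si-A1 ranged from 66 to 516, the 215 of 24 h si-A2 from 92 upward, the 17 of 24 h si-A2 against si-A1 from 0 to 353, the 1539 of 48 h si-A1 from 0 to 2699, the 41 of 48 h si-A2 from 0 to 527, the 282 of 48 h si-A2 against si-A1 from 0 to 759, and the 54 and 14 of the interactions from 0 to 146 and from 0 to 16, in settings other than leaving out an array. The share of 48 h si-A1 calls that were lower was 71.5%, and 52.2% with normexp. Scaling on the 75th percentile moved the median of all genes from 0.02 to 0.16 for 24 h si-A1 and from 0.11 to 0.22 for 48 h si-A1, with member medians of -1.52 and -2.11.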
